A study of Mus musculus with 11 samples.

Results

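The comparison described here is between memory-phenotype and naive CD4+ T cells of unmanipulated mice. It uses 5 of the 11 arrays of the series, 2 of memory-phenotype cells and 3 of naive cells, and 20403 genes of the deposited gene table, those whose row carries 1 gene symbol. Both populations came from the spleens of female wild-type (WT) C57BL/6 mice aged 8 weeks. The naive cells (WT naive) were sorted as TCRβ+CD4+CD44loCD62Lhi. The memory-phenotype cells were sorted as TCRβ+CD4+CD44hiCD62Llo, and the series calls them innate memory phenotype (IMP) cells, so they are named WT IMP below. Sorted purity was stated as 92% to 99% for the whole series. The remaining 6 arrays hold cells of bone marrow chimeras and serve here only as a comparison. WM IMP cells (3 arrays) carried CD45.1 and came from irradiated CD45.2+ hosts without MHC class II that had received WT marrow. MW naive cells (3 arrays) carried CD45.2 and came from irradiated WT hosts that had received marrow without MHC class II. Both kinds of chimera were used 8 weeks after the transfer, and the labels disagree on the CD45 allele of the WT hosts. The labels number the arrays as biological replicates but do not say whether an array holds 1 mouse or a pool.

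Naive CD4+ T cells have left the thymus without meeting their antigen. They recirculate through lymph nodes with the help of homing receptors such as CCR7, and are held in a quiescent state by factors such as TCF-1, LEF1, FOXO1 and BACH2. Memory-phenotype cells accumulate in mice that were never immunised, carry high CD44, and can release cytokines soon after stimulation. The CD44hiCD62Llo gate also takes in regulatory T cells, follicular helper cells and innate-like T cells that depend on the factor PLZF (Zbtb16).

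Every value below is a log2 difference from a gene's own average over the WT naive arrays, so those 3 arrays average 0 and no brightness is known. The file therefore shows how far a gene moved and not whether it was present, and values of different genes cannot be ranked as amounts of RNA. In bulk RNA of a sorted population, a change in the number of cells of a type and a change in RNA per cell cannot be told apart.

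The arrays differed in ways that the groups do not explain. The median over genes lay between -0.05 and 0.00 on all 11 arrays. The spiked poly-A controls stood high on WT naive replicate 1 (2.56) and WT IMP replicate 1 (2.29) and low on the other 3 arrays of the comparison (-1.38 to -1.18). The 5 prime minus 3 prime difference of the Gapdh control probe sets, which falls when the labelled RNA is shorter, was -4.23 on WT IMP replicate 1, -0.27 on WT IMP replicate 2 and between -0.42 and 0.41 on the WT naive arrays. Where leaving out 1 of the 5 arrays moved the count of a gene list by more than 1.5 times, the count without it is given. On the chimera arrays, WM IMP minus MW naive was -7.21 for Xist and 5.50 for Ddx3y, a Y-linked gene, which goes against labels that give all mice as female. In the unmanipulated mice the same differences were 0.10 and 0.06.

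A gene was called when limma, fitted to all genes and 11 arrays, gave an adjusted p under 0.05 for WT IMP minus WT naive. By this rule 1673 genes, 8.2% of those tested, differed. Of these, 1103 (5.41% of all genes) were higher and 570 (2.79%) were lower in WT IMP. Among the genes that rose, 772 rose at least 2-fold, 336 at least 4-fold and 40 at least 16-fold. Among those that fell, 236 fell at least 2-fold, 33 at least 4-fold and 1 at least 16-fold. The median size of the difference was 1.40 for the genes that rose and 0.90 for those that fell, while the median over all genes was -0.02. For every called gene both WT IMP arrays lay outside the range of the 3 WT naive arrays, which also held for 19% (above) and 21.9% (below) of all genes. The 2 WT IMP arrays were a median of 0.15 apart over all genes and 0.23 apart over called genes, and 22 called genes differed between them by more than 1. In all, 1008 genes (4.94%) were called with a difference of at least 2-fold. Among the called genes 693 had 1 probe set and 980 had several. For 244 of the 980 the probe sets lay in both directions, and the text gives probe set values for some genes only. Without WT IMP replicate 1, 790 genes were called (3.87%, with 3.09% higher and 0.779% lower), and 772 of the 1673 were still called in the same direction. Without WT IMP replicate 2 the count was 1051 (5.15%, with 3.52% higher and 1.63% lower), of which 965 were among the 1673. Without each of the 3 WT naive arrays it was 1221 (5.98%), 1160 (5.69%) and 1067 (5.23%), in the order of their numbers. Of 368 called genes that the lists hold or the text may name, 226 were called without each of the 5 arrays in turn, and the text says where a gene it names was not.

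**Figure D1:**
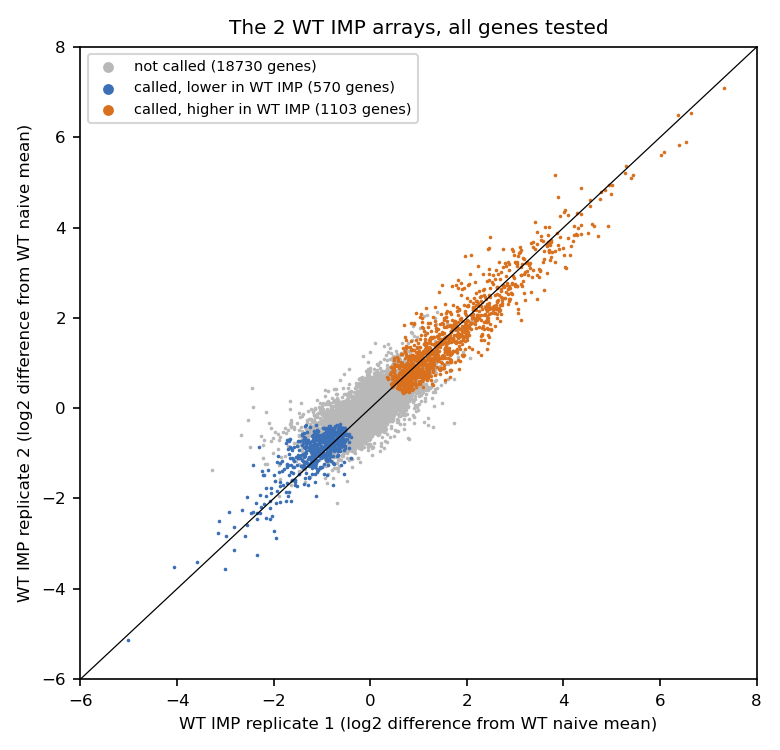
Log2 difference from the WT naive mean on WT IMP replicate 1 (x axis) against WT IMP replicate 2 (y axis), 1 point per gene for the 20403 genes tested, coloured by call, with the line of equal values. The 1103 genes that rose reach past 6 on both arrays, while 1 of the 570 genes that fell lies beyond -5 on both.

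The 20 greatest called differences in each direction among genes with separate arrays set the range. The greatest rise was that of D13Ertd608e (7.21), named here without a role. Cxcr3, a receptor for interferon-induced chemokines, read 0.77, -0.38 and -0.39 on the WT naive arrays and 6.63 and 6.53 on the WT IMP arrays. The 2 groups were far apart, with a difference of 6.58 ± 0.29 (SE from limma, 2 and 3 arrays, adjusted p = 4.36e-07), or 95.9-fold. Cxcr6, a receptor for CXCL16 that guides T cells into tissues such as liver, was 6.43 ± 0.28 higher (adjusted p = 4.36e-07).

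Tbx21, which encodes T-bet, the factor that directs type 1 helper function, read 0.73, -0.16 and -0.58 on the WT naive arrays and 6.08 and 5.68 on the WT IMP arrays. Its difference was 5.88 ± 0.31 (limma adjusted p = 1.42e-06). Cytokine genes of both helper types stood beside it. Il4, the type 2 cytokine, read -0.28, 0.07 and 0.21 on the WT naive arrays and 5.40 and 5.10 on the WT IMP arrays, a difference of 5.25 ± 0.22. Ifng, which encodes interferon gamma, read -0.02, 0.22 and -0.20 on the WT naive arrays and 4.56 and 4.49 on the WT IMP arrays, a difference of 4.52 ± 0.22. For both cytokines the arrays of each group lay within 0.5 of each other, and the groups lay more than 4 apart.

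S100a4 and S100a6, calcium-binding proteins of motile cells, rose by 5.81 ± 0.36 and 5.31 ± 0.31. Ccl5, a chemokine that memory T cells store as message, rose by 4.98 ± 0.39. Nkg7, a protein of cytotoxic granules, read 0.65, -0.17 and -0.47 on the WT naive arrays and 4.78 on both WT IMP arrays. Tyrobp, the signalling adaptor also called DAP12, rose by 4.70 ± 0.29, and Serpina3g, a serine protease inhibitor of activated T cells, by 4.85 ± 0.28. Runx2, a Runt family factor, rose by 4.87 ± 0.39 in the gene table, where its 3 probe sets ranged from 0.01 to 5.82 and averaged 1.97. The upper 20 also held Siglech (5.33 ± 0.57), Klk1 (6.22 ± 0.66), Klra17 (6.11 ± 0.93) and Mpeg1 (4.94 ± 0.44). Klra17 read 6.40 and 5.83 on the WT IMP arrays, and 0.50, 5.11 and 3.26 on the WM IMP arrays, which also enter its SE. Siglech is a lectin of plasmacytoid dendritic cells and Mpeg1 a pore-forming protein of macrophages, and the markers of those cells are given further on. Trgv1, a variable segment of the T cell receptor gamma chain, rose by 4.62 ± 0.38.

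Igfbp4, a binding protein of insulin-like growth factors, had the greatest called difference in the other direction. It read -0.10, 0.18 and -0.08 on the WT naive arrays and -5.02 and -5.14 on the WT IMP arrays, so the groups were separated by about 5 log2 units (-5.08 ± 0.14, limma adjusted p = 1.82e-08, 33.8-fold). All 6 of its probe sets were lower, by -1.17 to -6.29. Ampd1, which deaminates AMP, read -0.16, 0.04 and 0.13 on the WT naive arrays and -4.07 and -3.51 on the WT IMP arrays (-3.79 ± 0.28).

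Dapl1, a small protein related to DAP, read 0.09, -0.04 and -0.05 on the WT naive arrays and -3.01 and -3.56 on the WT IMP arrays (-3.28 ± 0.22). Other genes among the lower 20 encode receptors and cytoskeletal proteins. Vipr1, the receptor for vasoactive intestinal peptide, fell by 2.96 in the gene table, with its 2 probe sets at -3.07 and 0.03. Tgfbr3, a coreceptor for TGF-beta, fell by 2.82, with its 2 probe sets at -2.83 and 0.04. Acvrl1, a receptor of the same family, fell by 2.57, and Adcy6, an adenylyl cyclase, by 2.40. Pdlim4, Cnn3 and Actn1, which bind actin, fell by 3.50, 2.80 and 2.39, and Slc16a5, a monocarboxylate transporter, by 2.91.

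**Figure D2:**
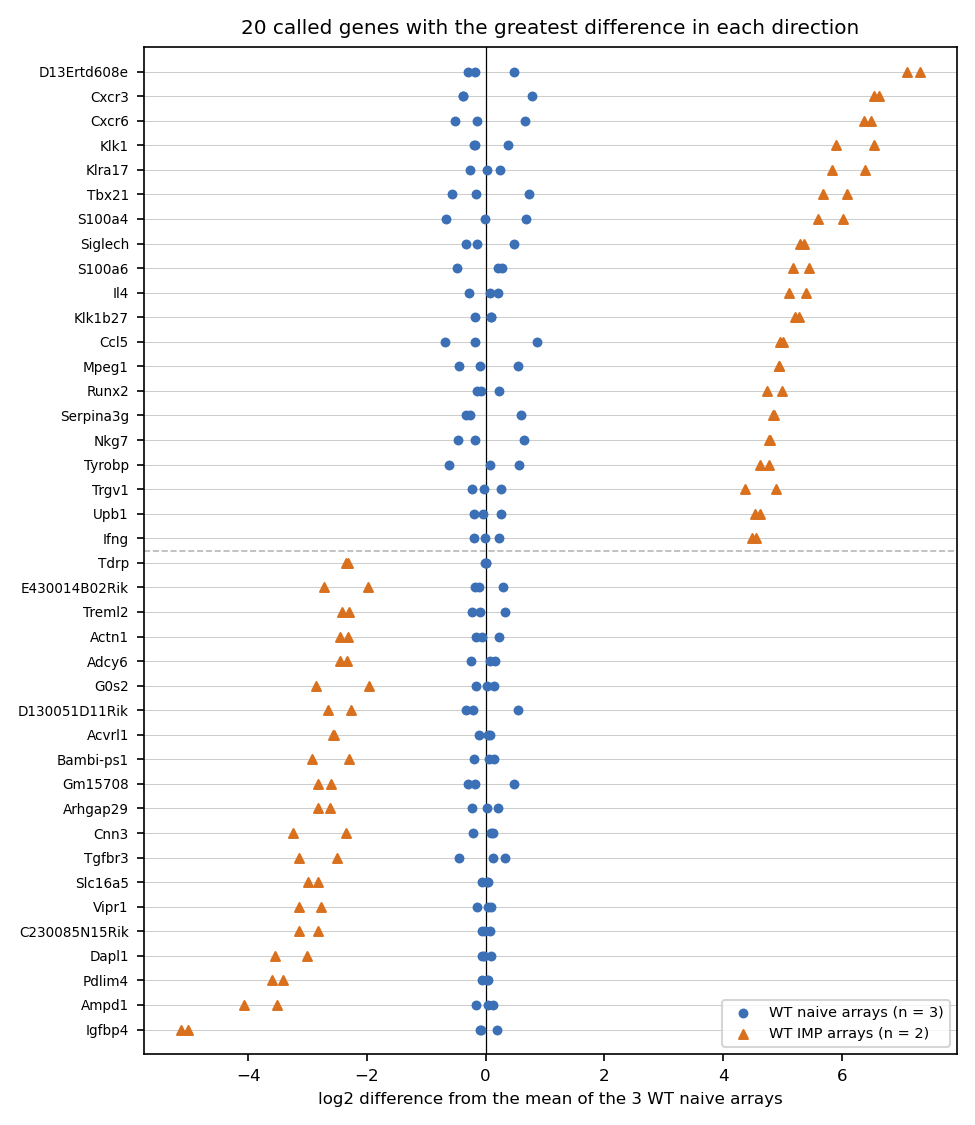
Log2 difference from the WT naive mean on each of the 3 WT naive arrays (circles) and 2 WT IMP arrays (triangles) for the 20 called genes with the greatest difference in each direction among those with separate arrays. The WT naive arrays lie between about -0.7 and 0.9 for these genes, and the WT IMP arrays beyond 4.3 above and -1.9 below.

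The promoters of 5 of these genes are printed to show the sequence before the genes that moved most in each direction. Each runs from 250 bases before to 50 bases after the annotated start (RefSeq, GRCm38.p6), 5′ to 3′ on the gene's strand, and capitals mark a match to 1 of the motifs searched. The positions are X:101734098-101734397 (minus strand) for Cxcr3, 10:118440796-118441095 for Ifng, 7:43436888-43437187 for Nkg7, 11:99040994-99041293 for Igfbp4 and 2:59484403-59484702 for Dapl1, the last 4 on the plus strand.
Cxcr3: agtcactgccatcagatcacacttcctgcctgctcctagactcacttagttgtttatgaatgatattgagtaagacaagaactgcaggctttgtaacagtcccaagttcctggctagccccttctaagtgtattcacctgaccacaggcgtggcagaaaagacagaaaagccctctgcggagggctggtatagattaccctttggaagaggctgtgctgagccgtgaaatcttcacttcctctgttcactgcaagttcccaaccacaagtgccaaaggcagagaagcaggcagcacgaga
Ifng: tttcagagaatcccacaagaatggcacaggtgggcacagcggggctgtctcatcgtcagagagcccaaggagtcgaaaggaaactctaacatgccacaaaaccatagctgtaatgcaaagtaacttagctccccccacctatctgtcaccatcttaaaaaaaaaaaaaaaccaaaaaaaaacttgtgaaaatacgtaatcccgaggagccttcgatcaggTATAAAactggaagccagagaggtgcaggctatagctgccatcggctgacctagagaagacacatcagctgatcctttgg
Nkg7: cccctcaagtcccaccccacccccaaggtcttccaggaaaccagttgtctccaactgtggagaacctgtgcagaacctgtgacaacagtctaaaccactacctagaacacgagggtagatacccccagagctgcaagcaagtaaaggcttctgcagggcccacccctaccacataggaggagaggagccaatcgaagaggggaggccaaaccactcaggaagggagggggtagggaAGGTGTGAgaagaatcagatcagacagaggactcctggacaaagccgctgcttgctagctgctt
Igfbp4: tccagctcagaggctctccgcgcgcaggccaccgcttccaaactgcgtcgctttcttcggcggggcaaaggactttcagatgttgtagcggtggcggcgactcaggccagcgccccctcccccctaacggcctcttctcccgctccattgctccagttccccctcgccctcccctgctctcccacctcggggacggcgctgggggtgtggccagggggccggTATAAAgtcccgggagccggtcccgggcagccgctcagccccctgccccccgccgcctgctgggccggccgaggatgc
Dapl1: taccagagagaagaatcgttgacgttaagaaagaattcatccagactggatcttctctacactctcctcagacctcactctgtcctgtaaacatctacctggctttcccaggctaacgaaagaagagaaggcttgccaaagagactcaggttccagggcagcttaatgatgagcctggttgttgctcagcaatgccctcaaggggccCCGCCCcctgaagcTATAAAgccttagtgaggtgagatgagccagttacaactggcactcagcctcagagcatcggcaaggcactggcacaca
The capitals mark TATAAA in Ifng, Igfbp4 and Dapl1, a T-box motif in Nkg7, and a GC box, read on the other strand, in Dapl1. No motif searched lies in the Cxcr3 window.

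The 5 motifs were sought on both strands of the promoters of 822 genes that rose, 425 that fell and 14183 tested genes in all. The T-box core AGGTGTGA was found in 1.7% of the promoters of genes that rose, 0.94% of those that fell and 1.29% of all. The AP-1 core TGANTCA was found in 10.7%, 5.65% and 7.49% in the same order, and CTTTGAT, the core bound by TCF and LEF factors, in 3.89%, 3.76% and 3.45%. The GC box GGGCGG was found in 61.7%, 77.2% and 58%, and TATAAA in 11.1%, 9.41% and 11.5%. These are shares of letters in a window and show no binding.

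Cd44, a gene of the sort, followed the gate. It read 0.12, -0.22 and 0.10 on the WT naive arrays and 2.77 and 2.68 on the WT IMP arrays, a difference of 2.72 ± 0.20 (limma adjusted p = 8.17e-06). The sort used its protein, so these values check the labels. Cd4 was not called: it read -0.21, 1.09 and -0.88 on the WT naive arrays and -1.14 and -1.01 on the WT IMP arrays (adjusted p = 0.309). Cd3e (-0.12) and Ptprc (0.19), which encode a CD3 chain and CD45, were not called either.

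Transcription factors linked to the naive, quiescent state were lower in part in WT IMP. Of 29 members measured, 13 fell and none rose, with a median of -0.75, against 2.79% of all genes lower and a median of -0.02. Lef1, the TCF family factor of early T cells, read -0.01, -0.34 and 0.35 on the WT naive arrays and -2.55 and -1.96 on the WT IMP arrays. Its difference was -2.26 ± 0.25 (limma adjusted p = 0.000138), with no overlap between the groups. Bach2, a repressor that restrains effector programmes, read -0.19, -0.08 and 0.27 on the WT naive arrays and -2.27 and -2.32 on the WT IMP arrays (-2.29 ± 0.21, adjusted p = 3.43e-05).

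Foxp1 and Foxo1, forkhead factors that maintain quiescence, fell by 1.51 ± 0.17 and 1.17 ± 0.13, and Satb1, a chromatin organiser, by 1.39 ± 0.18. Sox4 fell by 1.61 ± 0.18. Tcf7, which encodes TCF-1, read 0.03, -0.02 and -0.01 on the WT naive arrays and -1.40 and -0.76 on the WT IMP arrays, a lesser and less even change (-1.08 ± 0.28, adjusted p = 0.0337). Its call was lost without WT IMP replicate 1 (adjusted p = 0.384) or without any 1 WT naive array (0.0888 to 0.0939). Klf2, which drives S1pr1, missed the threshold (-0.75 ± 0.21, adjusted p = 0.0556), and Id3 read 0.09 (adjusted p = 0.968). The list also holds Treml2, a receptor that is no transcription factor, which fell by 2.37. Without each of the 5 arrays in turn, 9 to 12 members fell.

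Many factors of effector and memory cells were higher. Of 37 measured, 20 rose and 1 fell, with a median of 1.02. The member that fell, Epas1 (-1.28), lost its call without WT IMP replicate 1 (adjusted p = 0.0826). Besides Tbx21, the factors that rose belong to several helper programmes. Maf, a factor of cells that make IL-4, IL-10 or IL-21, read 0.16, -0.10 and -0.06 on the WT naive arrays and 4.36 and 4.29 on the WT IMP arrays. Its difference was 4.33 ± 0.14 (limma adjusted p = 3.07e-08), although its 6 probe sets ranged from 0.06 to 6.12. Bhlhe40, which sustains cytokine output, rose by 4.21 ± 0.21. Id2, an inhibitor of E proteins, rose by 3.47 ± 0.21, and Rora by 2.98 ± 0.20.

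Zbtb16, which encodes PLZF, read 0.03, 0.18 and -0.21 on the WT naive arrays and 3.36 and 3.06 on the WT IMP arrays (3.21 ± 0.28, limma adjusted p = 2.84e-05). Foxp3, the factor of regulatory T cells, read -0.05, 0.07 and -0.03 on the WT naive arrays and 1.96 and 1.80 on the WT IMP arrays (1.88 ± 0.19, adjusted p = 7.55e-05). Both groups were tight for each factor and did not overlap. Ikzf2, which encodes Helios, rose by 2.84 ± 0.21. Gata3, the type 2 factor, rose by 0.72 ± 0.12 (adjusted p = 0.00236). Factors that missed the threshold included Prdm1 (1.02, adjusted p = 0.0548), Bcl6 (0.44, 0.42), Eomes (0.48, 0.779), Runx3 (0.57, 0.29) and Batf (0.25, 0.756).

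**Figure D3:**
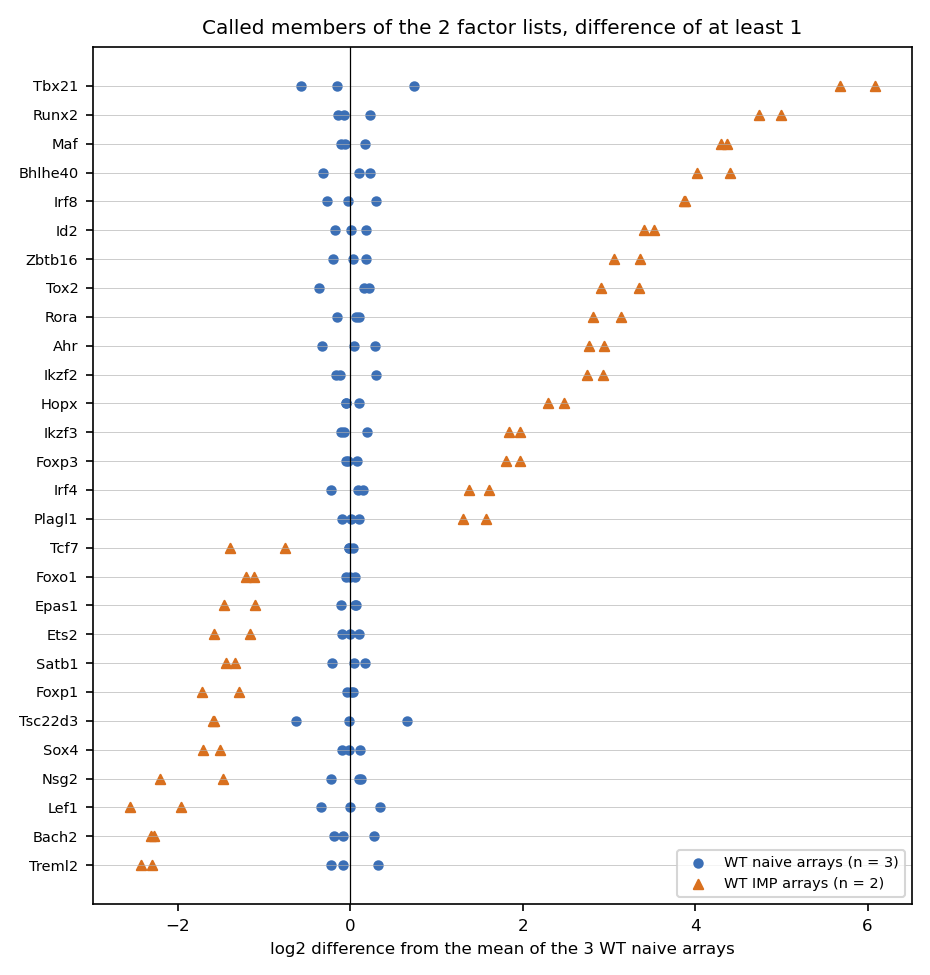
Log2 difference from the WT naive mean on each WT naive array (circles, n = 3) and WT IMP array (triangles, n = 2) for the called members of the naive-cell and effector-cell factor lists with a difference of at least 1 in size, ordered by difference. Tbx21 lies at 6.08 and 5.68 at the top and Treml2, a receptor kept in the naive-cell list, at -2.42 and -2.31 at the bottom, and the triangles lie outside the circles for every gene shown.

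Most chemokine receptors that were called were higher. Of 20 measured, 8 rose and 1 fell. Besides Cxcr3 and Cxcr6, the members that rose included Ccr2 (3.24 ± 0.27), a receptor for CCL2. Ccr9, the receptor of the gut chemokine CCL25, rose by 3.67 ± 0.19. Cxcr5, which leads cells into B cell follicles, rose by 2.36 ± 0.38, and Ccr6, the receptor of CCL20, by 2.33 ± 0.32. Averaging probe sets gave a smaller difference for Ccr9 (1.86), which stayed called. Ccr7, which takes cells into lymph nodes, read -0.13, -0.01 and 0.14 on the WT naive arrays and -2.07 and -2.20 on the WT IMP arrays (-2.14 ± 0.25, limma adjusted p = 0.000262). It was the member of the list that fell, with no overlap between the groups.

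Of 32 chemokine genes measured, 5 rose (15.6%, against 5.41% of all genes) and none fell, and the median was 0.13. Without WT IMP replicate 1 these were 3 rising and a median of 0.07. Xcl1, a ligand for dendritic cells that present to CD8+ T cells, rose by 4.27 ± 0.33, and Cxcl10, a ligand of CXCR3, by 2.69 ± 0.31. Ccl3 (1.27, adjusted p = 0.194) and Ccl4 (1.10, adjusted p = 0.323) missed the threshold.

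Among 36 interleukin and interferon genes, 9 rose and none fell, so Ifng and Il4 stood among members that mostly did not pass. Ebi3, a shared subunit of IL-27 and IL-35, rose by 3.28 ± 0.30. Csf2, which encodes GM-CSF, rose by 2.41 ± 0.31. Il10 read -0.13, 0.26 and -0.13 on the WT naive arrays and 0.94 and 2.12 on the WT IMP arrays, and its call (1.53 ± 0.32, limma adjusted p = 0.0117) was lost without WT IMP replicate 2 (0.123). Il21, a cytokine of follicular helper cells, read 1.18 and 2.06 on the WT IMP arrays and missed the threshold (adjusted p = 0.0612). Il17a (-0.06), Il13 (0.15) and Il5 (-0.03) were also not called.

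Receptors for cytokines moved in both directions: of 39 measured, 15 rose and 6 fell. Chains for IL-2 and IL-15, IL-12, IL-18, IL-25 and IL-33 were among those that rose. Il2rb, the beta chain for IL-2 and IL-15, read -0.04, 0.34 and -0.30 on the WT naive arrays and 2.75 and 3.12 on the WT IMP arrays (2.94 ± 0.24, limma adjusted p = 1.74e-05). Il12rb1 rose by 3.58 ± 0.25 and Il18rap by 3.22 ± 0.21, while Il12rb2, the second IL-12 chain, read 0.48 and was not called (adjusted p = 0.206). Il17rb, the receptor for IL-25, rose by 3.95 ± 0.33, and Il1rl1, the receptor for IL-33, by 2.65 ± 0.30. Those that fell included Il4ra (-1.27 ± 0.18), the IL-4 receptor, and Il6ra (-1.21 ± 0.18), the IL-6 receptor. Il7r, the survival receptor of resting T cells, read -0.09 (adjusted p = 0.932), and Il2ra, the alpha chain of the IL-2 receptor, 0.84 (adjusted p = 0.0529). The counts without WT IMP replicate 1 were 10 rising and 3 falling.

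Downstream of these receptors, 4 of 21 JAK, STAT and SOCS genes rose and 1 fell, with none falling without WT IMP replicate 1 or WT naive replicate 2 or 3. Socs2, a feedback inhibitor of cytokine signalling, rose by 2.64 ± 0.21 and Cish, an early target of STAT5, by 1.34 ± 0.19. In the TGF-beta and SMAD pathway 7 of 26 members fell and 4 rose. Smad7, the inhibitory SMAD, fell by 1.39 ± 0.23, and Ski, a corepressor of SMADs, by 1.05. Itgb8, an integrin chain that activates latent TGF-beta, rose by 2.39. Without WT IMP replicate 1, and likewise without replicate 2, 1 member rose and 5 fell, and 2 rose without WT naive replicate 2 or 3.

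Inhibitory and costimulatory receptors of the immunoglobulin superfamily were called in 1 direction: 11 of 29 rose and none fell, with a median of 0.55, while 1 fell without WT IMP replicate 2. Ctla4, an inhibitory receptor that binds CD80 and CD86, read 0.07, 0.01 and -0.07 on the WT naive arrays and 3.05 and 3.37 on the WT IMP arrays (3.21 ± 0.19, limma adjusted p = 2.75e-06). Lag3, an inhibitory receptor for MHC class II, read -0.10, 0.10 and 0.00 on the WT naive arrays and 4.13 and 3.40 on the WT IMP arrays (3.76 ± 0.39). For neither gene did the groups overlap. Cd160 rose by 4.18 ± 0.28, Havcr2, which encodes TIM-3, by 3.29 ± 0.37, and Icos, a costimulator of helper cells, by 2.26 ± 0.16. Pdcd1, which encodes PD-1, rose by 2.65 ± 0.49 (adjusted p = 0.00541), a call lost without WT IMP replicate 1 (0.0623). Cd28 read 0.27 and was not called (adjusted p = 0.522).

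Of the TNF superfamily, 4 of 13 ligands and 6 of 21 receptors rose and none of either fell. Tnfsf11 (RANKL) rose by 3.11 ± 0.18, Tnfsf14 (LIGHT) by 3.13 ± 0.25 and Fasl, the death ligand, by 2.11 ± 0.30. The 2 probe sets of Tnfsf11 stood at 0.07 and 3.72, and those of Tnfsf14 at -0.03 and 4.15. Tnfrsf4 (OX40) rose by 2.23 ± 0.18. Cd40lg, the helper ligand for B cells, read -0.76 and Cd27 -0.69, and neither was called (adjusted p = 0.536 and 0.205). Of 10 members of the SLAM family and its adaptors 5 rose, among them Slamf7 (3.03 ± 0.32), and 3 rose without WT IMP replicate 2.

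Receptors shared with natural killer (NK) cells were higher in part. Of 21 measured, 10 rose and 1 fell, with a median of 0.68. None fell without any 1 of the 5 arrays, and the median was 1.13 without WT IMP replicate 2. Klrg1, an inhibitory lectin of effector cells, read 0.47, -0.31 and -0.16 on the WT naive arrays and 3.88 and 4.68 on the WT IMP arrays (4.28 ± 0.26, limma adjusted p = 2.75e-06). Klrb1c, which encodes NK1.1, read 0.40, -0.14 and -0.27 on the WT naive arrays and 2.47 and 3.79 on the WT IMP arrays (3.13 ± 0.45), so its 2 WT IMP arrays were more than 1 unit apart. Klrk1, which encodes NKG2D, rose as well, with 2.45 and 3.54 on the WT IMP arrays, and Fcer1g, a signalling adaptor, by 3.54 ± 0.34. Ncr1, which marks NK cells and their relatives, read 0.01 (adjusted p = 0.998).

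Granule genes were uneven. Of 21 measured, 9 rose and 1 fell, with none falling without WT IMP replicate 1 or WT naive replicate 1 or 3. Gzmb, which encodes granzyme B, rose by 2.80 ± 0.49 (limma adjusted p = 0.00377) and Gzmk by 2.98 ± 0.73 (adjusted p = 0.0289), the second a call lost without any 1 of the 5 arrays (0.0691 to 0.224). Prf1, which encodes perforin, read 0.01, 0.14 and -0.16 on the WT naive arrays and -1.48 and -1.46 on the WT IMP arrays. It lay below all WT naive arrays but missed the threshold (adjusted p = 0.148), and Gzma read 0.85 (adjusted p = 0.25).

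Genes of T cell receptor signalling were called in the other direction. Of 34 measured, 7 fell and none rose, with a median of -0.32. Dgka, which removes diacylglycerol, read -0.04, 0.04 and 0.00 on the WT naive arrays and -1.18 and -0.85 on the WT IMP arrays (-1.02 ± 0.14, limma adjusted p = 0.000612). Its groups did not overlap. Prkcq, the protein kinase C of the immune synapse, fell by 0.96, a call lost without WT IMP replicate 1 (0.0825). Lck (-0.17), Zap70 (0.34) and Lat (-0.30), the kinases and scaffold at the start of the pathway, were not called. The count was 3 without WT IMP replicate 1 and 4 without WT naive replicate 3.

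Genes that are induced within hours of receptor stimulation were partly higher: 7 of 29 rose and none fell, with a median of 0.51. Cd83, a surface protein of activated lymphocytes, rose by 3.12 ± 0.29, and Egr2, which limits activation, by 1.01 ± 0.15. Egr1 (-0.01) and Cd69 (-0.02), both induced early, were not called. Of 18 dual-specificity phosphatases and Sprouty relatives, 4 rose and 2 fell, and Dusp6, a phosphatase of ERK, rose by 1.74 ± 0.33 (limma adjusted p = 0.00691), a call lost without WT IMP replicate 1 (0.0817). Of 19 RGS genes, which switch off G protein signals, 6 rose, led by Rgs18 (3.65) and Rgs1 (3.11 ± 0.40). Without either WT IMP array 3 early response genes rose, and 4 did without WT naive replicate 2 or 3. The phosphatase list had 2 rising without WT IMP replicate 1 or 2 or WT naive replicate 2 or 3. None of its members fell without WT IMP replicate 1, and 1 fell without WT naive replicate 2 or 3. Of the RGS genes 3 rose without WT IMP replicate 2.

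Genes of adhesion and movement were called in both directions. Of 24 integrin genes 6 rose and 1 fell. Itgb1, the beta1 chain, rose by 2.38 ± 0.28 in the gene table, with 6 probe sets from 0.01 to 3.22. Itgal, the alpha chain of LFA-1, rose by 0.84 ± 0.14, and Itgae, which binds E-cadherin, by 2.65 ± 0.23. Itga6, the laminin receptor chain, fell by 1.65 ± 0.19. Of 19 genes of lymph node entry and tissue exit 5 fell and 2 rose. S1pr1, the exit receptor, read -0.12, 0.01 and 0.10 on the WT naive arrays and -1.87 and -1.64 on the WT IMP arrays (-1.75 ± 0.47, limma adjusted p = 0.0448). Its arrays did not overlap, but the call was lost without any 1 of the 5 arrays (0.0921 to 0.289). In this list 2 members fell without WT IMP replicate 1 and 3 without any 1 WT naive array, and 1 rose without WT IMP replicate 2 or WT naive replicate 3.

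Of 33 S100, annexin and galectin genes 10 rose and none fell, with a median of 0.35, and 9 or 10 rose without each array in turn, although the median was 0.13 without WT IMP replicate 1. Besides S100a4 and S100a6 these included Anxa1 (2.93 ± 0.25), Anxa2 (2.65), Lgals3 (3.11 ± 0.31) and Lgals1 (1.85 ± 0.22). Of 47 myosin and actin genes 9 rose and 7 fell. Myo1f, a class I myosin of leukocytes, read 0.39, -0.10 and -0.29 on the WT naive arrays and 4.28 and 4.33 on the WT IMP arrays (4.30 ± 0.23, limma adjusted p = 1.59e-06). Ahnak rose by 2.73 ± 0.22, with 4 probe sets from 0.15 to 2.87, and Vim, the intermediate filament protein vimentin, read 0.28 and was not called (adjusted p = 0.491). Of 28 glycosyltransferase genes of selectin ligands and sialic acids 7 rose and 3 fell. St8sia6, a sialyltransferase, fell by 2.16 ± 0.23, and Chst2, a sulfotransferase, rose by 2.24. Of the glycosyltransferase genes 3 rose without either WT IMP array or WT naive replicate 2, and 4 without WT naive replicate 1 or 3.

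**Figure D4:**
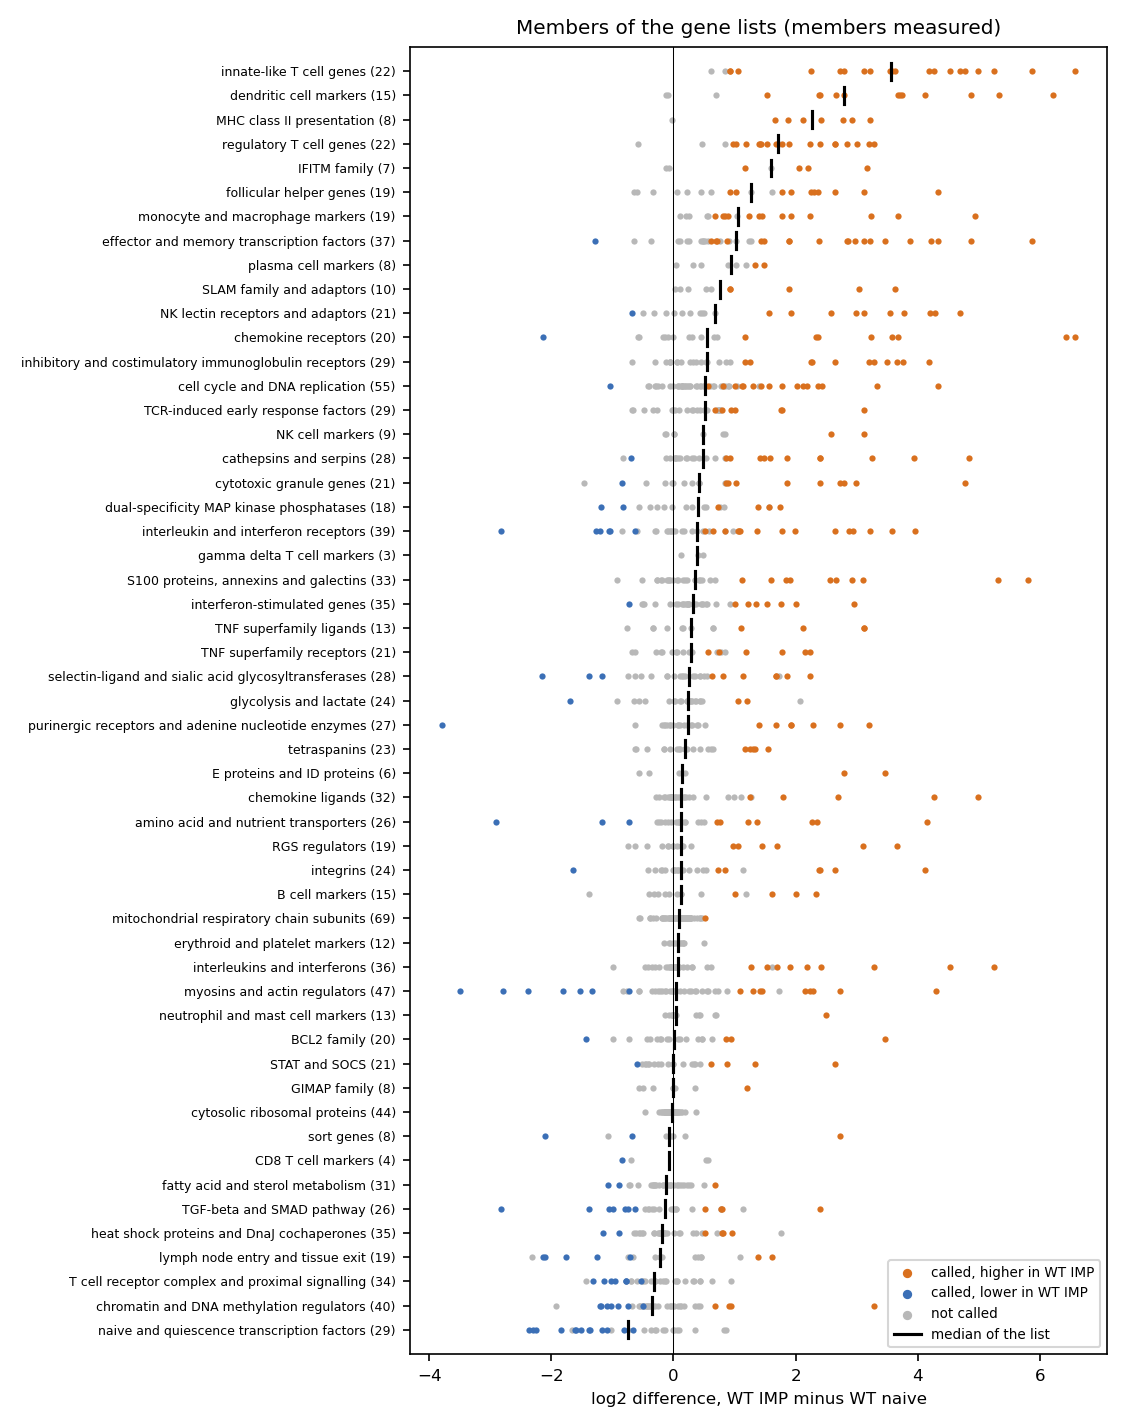
Log2 difference, WT IMP minus WT naive, of every measured member of the 53 gene lists (1 point per gene, coloured by call), with the median of each list as a bar and lists ordered by median. The list of naive-cell factors lies lowest (median -0.75) and the list of innate-like T cell genes highest (3.56), and ribosomal proteins lie close to 0 (-0.03).

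Purine signalling included one of the greatest declines, Ampd1, beside several rises: 7 of 27 members rose and 1 fell. Entpd1 (CD39), which degrades ATP to AMP, rose by 1.68 ± 0.15 and Nt5e (CD73), which makes adenosine from AMP, by 1.39 ± 0.24. P2rx7, the ATP-gated channel, read 0.02, -0.02 and 0.00 on the WT naive arrays and 1.55 and 2.31 on the WT IMP arrays (1.93 ± 0.29, limma adjusted p = 0.00142). P2ry6, a receptor for UDP, rose by 3.21 ± 0.35.

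Cell cycle genes were higher in part. Of 55 measured, 16 rose and 1 fell, with a median of 0.51, and 12 to 16 rose without each array in turn. Mki67, which encodes the Ki-67 protein of cycling cells, read 0.45, -0.52 and 0.07 on the WT naive arrays and 3.11 and 3.57 on the WT IMP arrays (3.34 ± 0.32, limma adjusted p = 5.73e-05). Ccnd1, cyclin D1, rose by 4.34 ± 0.30. Genes of division such as Ccnb2 (2.43), Ccna2 (2.18) and Birc5 (2.13), and Rrm2 (2.36), which supplies nucleotides for replication, rose too. Cdkn1b, which encodes the inhibitor p27, fell by 1.04 ± 0.20, a call lost without WT IMP replicate 1 (0.0657) or 2 (0.0673). Mcm2 (-0.00) and Pcna (-0.42), of the replication machinery, were not called.

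Of 20 BCL2 family genes 3 rose and 1 fell. Pmaip1, which encodes the pro-apoptotic NOXA, read 0.02, 0.06 and -0.08 on the WT naive arrays and 3.36 and 3.56 on the WT IMP arrays (3.46 ± 0.28, limma adjusted p = 1.56e-05). Bcl2, the survival protein, read -0.31, 0.16 and 0.15 on the WT naive arrays and -1.58 and -1.31 on the WT IMP arrays (-1.44 ± 0.30, adjusted p = 0.0108). The 2 genes moved in opposite directions with separate arrays. The Bcl2 call was lost without WT IMP replicate 1 (0.13), and without that array 1 member of the list rose and none fell, while 1 rose without WT naive replicate 2 or 3.

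Of the metabolic lists, ribosomal proteins (0.0%) and the respiratory chain (1.4%) had a lower share called than all genes (8.2%). Glycolysis (12.5%) and fatty acid and sterol metabolism (9.7%) lay nearer that share, and nutrient transporters (38.5%) lay above it. Of 44 ribosomal protein genes with a row of 1 symbol (78 were listed) none was called, with a median of -0.03. Of 69 subunits of the respiratory chain 1 rose (Ndufb8, 0.52, a call lost without any 1 of the 5 arrays at 0.102 to 0.35), and 2 fell without WT IMP replicate 2. Of 24 genes of glycolysis 2 rose and 1 fell, with 1 rising without WT IMP replicate 1. Pdk1, which holds pyruvate back from the mitochondria, fell by 1.70 ± 0.19, and Hk2, a hexokinase, read 2.08 and missed the threshold (adjusted p = 0.0517). Of 31 genes of fatty acid and sterol metabolism 1 rose and 2 fell, with none falling without WT IMP replicate 1 and 1 without WT naive replicate 3. Of 26 nutrient transporters 7 rose and 3 fell, including Slc41a2, a magnesium transporter, which rose by 4.15, and Slc7a5, the leucine transporter, which fell by 1.16. When WT IMP replicate 1, or WT naive replicate 2 or 3, was left out, 3 transporters rose and 3 fell.

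Counts for chromatin regulators, heat shock proteins and interferon-stimulated genes depended on single arrays. Their shares called were 27.5%, 17.1% and 22.9% in that order, against 8.2% of all genes. Of 40 chromatin and DNA methylation regulators 7 fell and 4 rose, but 1 fell and 2 rose without WT IMP replicate 1, and none fell and 2 rose without WT IMP replicate 2. Without WT naive replicates 1, 2 and 3, 5, 2 and 3 fell and 2, 3 and 3 rose. Hmgn3, a nucleosome-binding protein, rose by 3.29 ± 0.31 and kept its call without each array in turn. Of 35 heat shock and DnaJ genes 4 rose and 2 fell, and 2 rose without WT IMP replicate 1 or WT naive replicate 2 or 3. None of these fell without either WT IMP array or WT naive replicate 3, and 1 fell without WT naive replicate 1 or 2. Of 35 interferon-stimulated genes 7 rose and 1 fell, with 3 rising without either WT IMP array, 4 without WT naive replicate 1, and none falling without WT IMP replicate 1. Mx1 rose by 2.96 ± 0.58 (limma adjusted p = 0.00803), a call lost without WT IMP replicate 1 (0.0652) or 2 (0.0689). Of 7 IFITM genes, which encode antiviral membrane proteins, 4 rose, led by Ifitm6 (3.17).

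Of 28 cathepsin and serpin genes, which encode proteases and their inhibitors, 11 rose and 1 fell, with none falling without WT IMP replicate 1 or WT naive replicate 1 or 3. Ctsh (3.94) and Ctsl (3.25) led the cathepsins. Of 23 tetraspanins 5 rose, led by Tspan31 (1.54), and none fell, while 3 rose without WT IMP replicate 1 or 2. Of 8 GIMAP genes, which encode GTPases of lymphocytes, 1 rose (Gimap7, 1.20) and none fell.

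Many genes known from CD4+ subsets that share the gate were higher. Of 22 genes of innate-like T cells 20 rose, with a median of 3.56, where 5.41% of all genes rose and their median was -0.02. These include Tbx21, Zbtb16, Ifng, Il4 and Cxcr3 from the lists above, so this count is not separate from theirs. Of 22 genes of regulatory T cells 18 rose, with a median of 1.71, among them Ctla4, Foxp3, Ikzf2 and Nrp1 (3.01 ± 0.20). Of 19 genes of follicular helper cells 10 rose, with a median of 1.27, among them Maf, Cxcr5 and Icos. Without each array in turn, 18 to 20, 14 to 18 and 7 to 10 members of the 3 lists rose. After quantile normalisation of the differences 8, 7 and 6 members rose, with medians of 2.06, 1.07 and 0.91, and 325 of all 20403 genes rose. The 3 lists were chosen with earlier results of these data known, so their counts are no separate support. The gate admits all of these cells, and the shares of each were not measured.

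Markers of cells outside the CD4+ lineage also moved, in lists likewise chosen with earlier results of these data known. Of 15 dendritic cell markers 12 rose, with differences from -0.12 to 6.22 and a median of 2.79, and 9 rose without WT IMP replicate 1. Siglech read 0.48, -0.34 and -0.14 on the WT naive arrays and 5.29 and 5.37 on the WT IMP arrays, with no overlap. Among the other plasmacytoid markers Cox6a2 rose by 3.71 and Tcf4 by 2.79 (7 probe sets from -0.09 to 3.82). Pacsin1, a further plasmacytoid marker, read -0.12 and was not called. Flt3, the receptor of dendritic cell development, rose by 3.75 ± 0.21, and Itgax, which encodes CD11c, by 4.13, while Zbtb46, a factor of conventional dendritic cells, read 0.69 and was not called (limma adjusted p = 0.155). Of 8 genes of MHC class II presentation 7 rose, with a median of 2.27. H2-Ab1, a class II beta chain, read 0.63, -0.19 and -0.44 on the WT naive arrays and 3.22 on both WT IMP arrays (3.22 ± 0.38, adjusted p = 0.000233).

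Of 19 markers of monocytes and macrophages 13 rose, with differences from 0.11 to 4.94 and a median of 1.05. Cd68 (3.68) and Csf1r (1.78 ± 0.25), the receptor of macrophage growth factor, were among them, while C1qa (0.20) and Cd14 (0.56) were not called. Without WT IMP replicate 1, 6 of these markers and 4 of the class II genes rose. Of 15 B cell markers 4 rose, none without WT IMP replicate 1 or WT naive replicate 3, and 2 without WT IMP replicate 2 or WT naive replicate 2. Cd79a (-1.39) was not called, and it ranged from -1.65 to 1.75 over the WT naive arrays. Of 8 plasma cell markers 2 rose, none without WT IMP replicate 1 and 1 without WT IMP replicate 2. After quantile normalisation of the differences, 6 dendritic cell markers, 1 class II gene and 1 monocyte and macrophage marker rose.

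The lists of other lineages were short, with 3 to 13 members measured, so their small counts of calls say little about these lineages. The share called lay above that of all genes (8.2%) for NK markers (22.2%) and CD8+ T cell markers (1 of 4). It lay near that share for neutrophil and mast cell markers (7.7%). Of 10 listed markers of gamma delta T cells 3 were measured, and Trgv1, the gamma chain segment that rose by 4.62, is not among these. Of 9 NK markers 2 rose, of 13 neutrophil and mast cell markers 1 rose (Kit, 2.50 ± 0.46, a call lost without WT IMP replicate 2 at an adjusted p of 0.0591), and of 12 erythroid and platelet markers and 3 markers of gamma delta T cells none was called by limma. Of 4 CD8+ T cell markers 1 fell (Crtam, -0.84, a call lost without WT IMP replicate 1 at 0.314 and without WT naive replicate 1 or 3). Cd8a read 0.54 and Cd8b1 -0.69, and neither was called. Several genes named above are also markers of these cells, among them Klk1, Runx2, Ccr9 and Irf8 (3.87 ± 0.23) for dendritic cells. The part of such cells in the differences was not tested, and with no brightness in the file a marker cannot be shown to be absent.

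The comparison of WM IMP with MW naive cells shares no array with that of WT IMP and WT naive cells, although both were fitted together. It called 3232 genes (15.8%). Of the 1673 genes called in unmanipulated mice, 1258 were called in the same direction in the chimeras, which is 75.2% of the first list and 38.9% of the second, and 2 were called in opposite directions. Each chimera contrast also sets marrow genotype, host and CD45 allele of 1 group against those of the other, so these cannot be told apart from the cell population. The same holds for a difference of sex, given Xist (-7.21) and Ddx3y (5.50) in WM IMP minus MW naive, against the labels. The 2 differences were set against each other in an interaction term, which was called for 24 genes (0.118%), 9 higher (0.0441%) and 15 lower (0.0735%) in the unmanipulated mice. After quantile normalisation of the differences it was called for 13 higher and 4 lower, and 6 of the 24 were among these. Without WT IMP replicate 1, 8 genes were called, also 8 without WT IMP replicate 2, and 96 without WM IMP replicate 2. The count was 11, 12 and 13 without WT naive replicates 1, 2 and 3, 41 without WM IMP replicate 1 and 15 without MW naive replicate 2. The 6 interactions called without each of the 11 arrays in turn were those of Xist, Ddx3y, Eif2s3y, Kdm5d, Trnp1 and Pik3ap1.

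Some of these genes moved further in one setting than in the other, where most of them read near 0. Ppfia4, a scaffold protein of the liprin family, rose by 2.45 ± 0.22 in unmanipulated mice and read -0.11 ± 0.19 in the chimeras, an interaction of 2.56 ± 0.29 (limma adjusted p = 0.00624, and 0.0628 without WT IMP replicate 1). Cdh5, the cadherin of endothelial cells, rose by 2.03 ± 0.22 against -0.03 ± 0.19 (interaction 2.07 ± 0.29, adjusted p = 0.0276). Nek6, a mitotic kinase, rose by 2.02 ± 0.15 against 0.63 ± 0.14 (interaction 1.38 ± 0.20, adjusted p = 0.0364). In the other direction Ctse, an aspartic protease, read 0.03 ± 0.27 in unmanipulated mice and 2.80 ± 0.24 in the chimeras (interaction -2.77 ± 0.36, adjusted p = 0.0179). The call of Ctse was lost without WT IMP replicate 1 or WT naive replicate 2 or 3 (adjusted p up to 0.116). That of Cdh5 was lost without any 1 of 7 arrays, which were the 5 unmanipulated ones and MW naive replicates 2 and 3 (up to 0.18). That of Nek6 was lost without any 1 of 9, all but WM IMP replicates 1 and 2 (up to 0.208).

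For others the difference of IMP from naive cells was above 0 in both settings but smaller in the unmanipulated mice. Itgae rose by 2.65 ± 0.23 against 5.16 ± 0.21 (interaction -2.51 ± 0.31, limma adjusted p = 0.0113). Ifitm3 rose by 2.20 ± 0.29 against 5.07 ± 0.26 (interaction -2.86 ± 0.40, adjusted p = 0.0252). H2-Ab1 rose by 3.22 ± 0.38 against 6.87 ± 0.34 (interaction -3.65 ± 0.51, adjusted p = 0.0253), where the MW naive cells came from MHC class II-deficient marrow. The MW naive arrays read -3.82 to -2.44 for H2-Ab1, -2.32 to -1.84 for Ifitm3 and -0.50 to -0.36 for Itgae. The WM IMP arrays read 3.43 to 3.87, 2.57 to 3.55 and 4.40 to 5.08 in the same order. Igfbp4 fell further in unmanipulated mice (-5.08 ± 0.14) than in the chimeras (-3.44 ± 0.13), an interaction of -1.64 ± 0.19 (adjusted p = 0.00707). Myo6, an unconventional myosin, fell less (-1.53 ± 0.24 against -4.44 ± 0.22, interaction 2.91 ± 0.32, adjusted p = 0.00603), and its MW naive arrays read 1.73 to 2.43. Of these 5 interactions, that of Myo6 was lost without WT IMP replicate 2 (0.0647), and the other 4 without either WT IMP array, with adjusted p up to 0.078 for Igfbp4, 0.105 for Itgae, 0.18 for Ifitm3 and 0.174 for H2-Ab1. Ifitm3 and H2-Ab1 also lost the call without WT naive replicate 1 or 2 or MW naive replicate 2, Ifitm3 without MW naive replicate 3, and H2-Ab1 without WM IMP replicate 3. Cxcr3 (interaction 0.10, adjusted p = 0.971) and Tbx21 (-0.39, adjusted p = 0.861) were not called.

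**Figure D5:**
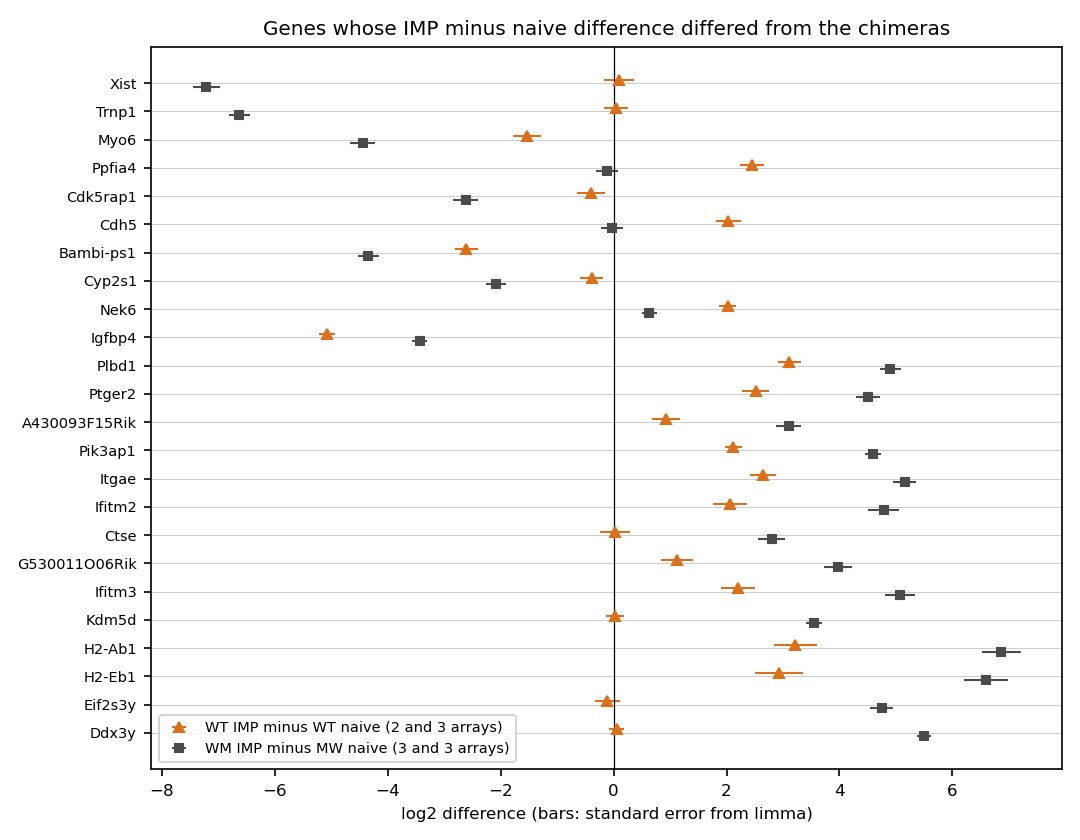
Log2 difference of IMP minus naive cells with its standard error from limma in unmanipulated mice (triangles, 2 and 3 arrays) and in the chimeras (squares, 3 and 3 arrays) for the 24 genes whose 2 differences differed, ordered by the interaction. Xist and Trnp1 at the top and the Y-linked Ddx3y, Eif2s3y and Kdm5d lie near 0 in the unmanipulated mice and away from 0 in the chimeras, and Igfbp4 lies at -5.08 and -3.44.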

How the data were processed

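RNA of sorted cells (30 ng of total RNA per sample, amplified to biotinylated cRNA, per the labels' protocols) was hybridised to 11 arrays. The values were made with RMA, per the submitters' processing notes. The authors deposited a gene table of log values set against the WT naive average, taken here as log2 by the convention of RMA since no base is stated, and quantile normalised per the name of the table. They also deposited log2 values per probe set (45101), used as a check on 37504 probe sets averaged per gene. Lowest correlations between both files were 0.954 for the 10941 genes with 1 probe set and 0.819 for the 9462 with several. Aligning build and probe annotation are not given in the sources used here.

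Rows without a symbol (5684) or with several (1712) were left out, and symbols were updated through RefSeq (GRCm38.p6), where 17878 of 20403 genes matched. The main test was limma 3.58.1 (R 4.3.3) with 4 groups and 11 arrays, contrasts WT IMP minus WT naive and that minus WM IMP minus MW naive, moderated by eBayes, with Benjamini-Hochberg adjustment over all genes. Signal over background is unknown, so no filter on dim genes was possible, and precision rests on how many arrays each group has. P-values rest on the spread within the 4 groups over all 11 arrays.

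Members, the 53 gene lists and the rules were chosen with earlier results of these data known. The text names the 20 called genes with the greatest difference in each direction and separate arrays, up to 8 called members and the defining members of each list, and the 15 greatest interactions in each direction with list members called there, as far as a role can be given. Epas1 was named after its values were seen, as a lone member that fell. Alternatives were each of the 11 arrays left out, the 5 arrays alone, Gapdh and actin 5 prime to 3 prime covariates, the poly-A control class as a block or its low class alone, quantile normalisation of the differences, centring, array weights, robust eBayes, a filter on spread, the probe set file, other thresholds, and a replicate block. Whether replicate numbers pair the samples is not known. Same-numbered WT IMP and WT naive arrays deviated from their group means with r of 0.17 and -0.05. These values cannot decide it, since the deviations of 2 WT IMP arrays from their own mean mirror each other. Some genes that the counts hold are not reported here by name.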

Additional observations from a re-analysis of the deposited data

Results flagged for a closer look

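The difference between IMP and naive cells was itself different in unmanipulated mice and in the chimeras for 24 genes, by limma's test of the interaction (unmanipulated minus chimera, log2). The interaction was above 0 for 9 genes. Xist, the RNA of the inactive X chromosome (7.31), Trnp1 (6.67) and Myo6 (2.91) were furthest above it. For each of these the IMP cells of the chimeras stood below their naive counterparts. In unmanipulated mice the difference was 0.10 for Xist, 0.04 for Trnp1 and -1.53 for Myo6. The others above 0 were Ppfia4 (2.56), Cdk5rap1 (2.23), Cdh5 (2.07), Bambi-ps1 (1.73), Cyp2s1 (1.70) and Nek6 (1.38). Trnp1 read 7.07, 6.78 and 6.36 on the MW naive arrays, between -0.14 and 0.29 on the WM IMP arrays and between -0.21 and 0.16 on the arrays of unmanipulated mice.

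The interaction was below 0 for 15 genes. The Y-linked Ddx3y (-5.45), Eif2s3y (-4.86) and Kdm5d (-3.52) were among those furthest from 0, with the class II chains H2-Eb1 (-3.66) and H2-Ab1 (-3.65). The antiviral membrane proteins Ifitm3 (-2.86) and Ifitm2 (-2.72) had like values. Ctse (-2.77), Itgae (-2.51), Pik3ap1 (-2.47), an adaptor of PI3 kinase, Ptger2 (-2.00), a receptor for prostaglandin E2, Plbd1 (-1.78) and Igfbp4 (-1.64) followed. G530011O06Rik (-2.85) and A430093F15Rik (-2.18) complete the 15.

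Rows of the gene table that carry several symbols or none were left out of the comparison. In 7396 such rows, limma called 197 between WT IMP and WT naive, with 114 above 0 and 83 below.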

How the results depend on the processing

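The count of 1673 genes called between WT IMP and WT naive stayed within 1.5 times of itself with array centring (1679), robust eBayes (1655), a filter on spread (1638), a poly-A block (1618), the probe set file averaged per gene (1562) or probe sets one by one (2015), and an actin covariate chosen after seeing the data (1256). It was 2676 with the 5 arrays alone, 3299 with array weights, 1110 with the Gapdh covariate, 529 with arrays of low poly-A controls (fewer arrays) and 476 after quantile normalisation of the differences, which gives all arrays equal spread by construction. Stricter thresholds gave 905 (adjusted p under 0.01) and 1008 (at least 2-fold). It ranged from 790 to 1221 when each of the 5 arrays compared was left out, and from 1477 to 2254 without each chimera array. The interaction count of 24 was 6 with the Gapdh covariate, 12 in the probe set file averaged per gene, 91 with array weights and 9 at an adjusted p under 0.01, and ranged from 8 to 96 when each of the 11 arrays was left out. The causes of these shifts were not tested. Of the WT IMP arrays only replicate 2 had low poly-A controls, so results for that class rest on this array alone for WT IMP. No interaction count is given for that class. The replicate block gave 1280 calls and 14 interactions, and whether the replicate numbers pair the samples is not known.

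Of 317 called genes that the text could name, none reversed under the alternatives run. Calls were lost for 180 after quantile normalisation, 126 with low poly-A arrays, 94 without WT IMP replicate 1, 70 without WT IMP replicate 2, 58 with the Gapdh covariate, 48 with the actin covariate, 37, 47 and 60 without WT naive replicates 1, 2 and 3, and 29 each with the block and the probe set file. The precision rests on 2 WT IMP arrays, 1 of which had a low Gapdh 5 prime minus 3 prime difference, and with no signal over background in the file dim genes cannot be set apart. Of 106 counts of list members, 59 moved by more than 1.5 times after quantile normalisation, 48 with low poly-A arrays and 34 without WT IMP replicate 1.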
